A study of Mus musculus with 8 samples.

Results

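Antigen presentation was followed through 10 listed genes in the cervical spinal cord, the tissue named by the labels, of male C57BL/6 mice, and they were chosen by name and not by measured values. They were the class II genes H2-Aa, H2-Ab1, H2-Eb1 and Cd74, and the class I and peptide-loading genes B2m, H2-K1, H2-D1, Tap1, Psmb8 and Psmb9. Of the 10, 8 had a probe set that the platform annotation gave to that symbol alone, and these 8 also passed the filter on low signal (a mean over the 8 arrays above 4.30 on the log2 scale), so that 8 of the 16026 genes tested are described with tests. H2-K1 and H2-D1 were listed only together, on 2 probe sets with several symbols, and have no value of their own.

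The 4 groups had 2 arrays each, called replicate 1 and replicate 2. The acupoint group received MPTP (a toxin of dopaminergic neurons, used in mouse models of Parkinson's disease) and hand needling at acupoints GB34 and LR3, in 14 sessions with 48 h between them. The non-acupoint group received MPTP and the same needling at both hips. The MPTP group received MPTP alone, injected into the abdomen at 20 mg/kg daily for 4 weeks, and the control group received saline on that schedule. The mice were 6 weeks old, and all carried the same strain background with no transgene named. The sample titles name 1 numbered mouse for each array. The protocols describe more mice than arrays, but not whether each array was made from 1 mouse or from pooled RNA. The p-values therefore reflect the spread between arrays alone, and that spread may be technical.

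Signals are the authors' RMA values on the log2 scale, so a difference of 1 is a 2-fold difference in signal. The median signal over all probe sets was 5.59 to 5.80 on the 8 arrays. The spread followed the treatment: the SD over all probe sets was 2.35 on each control array and 2.43 to 2.50 on the acupoint, non-acupoint and MPTP arrays. A narrower spread on the control arrays can shift bright and dim probe sets in opposite directions in every comparison with control. Its part in those comparisons was not tested. Arrays correlated with each other at 0.975 to 0.996 across the genes tested, which are not independent replicates. Replicates correlated at 0.985 in the acupoint group, 0.988 in the control group, 0.994 in the non-acupoint group and 0.996 in the MPTP group. Acupoint replicate 1 was closer to MPTP replicate 2 (0.991) than to acupoint replicate 2. Of 15 markers of cord neurons, glia and axial position, 14 were tested, with mean signals of 6.80 to 12.3, so the labelled tissue had its markers. Levels of different probe sets are not compared, and the number of arrays limits the precision.

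Class I molecules, a heavy chain with beta-2 microglobulin, show peptides from the cell's own proteins to CD8 T cells. The peptides are cut by the proteasome, whose interferon-induced immunoproteasome form carries Psmb8 and Psmb9, and are pumped into the endoplasmic reticulum by the Tap transporter. Class II molecules show peptides from ingested proteins to CD4 T cells, and Cd74, the invariant chain, guards their groove until they reach the endosome. In the healthy nervous system class II is found mainly on macrophages and dendritic cells at the borders, such as the meninges and perivascular spaces, and resting microglia carry little of it.

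For each of the 4 class II genes, the 2 acupoint arrays and the 2 control arrays were further apart than the means of any 2 groups compared. H2-Aa, the alpha chain of the I-A molecule, had 6.96 and 4.89 on the acupoint arrays, 5.29 and 6.20 on the non-acupoint arrays, 4.92 and 6.03 on the MPTP arrays, and 7.35 and 5.49 on the control arrays, replicate 1 first. Its highest signals were on control replicate 1 and acupoint replicate 1, and the other array of those groups was among the lower ones, so every pair of groups overlapped. The 2 acupoint arrays differed 4.19-fold and the 2 control arrays 3.65-fold, whereas the largest of the differences between group means in the 4 pairwise comparisons was 1.92-fold.

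H2-Ab1, the beta chain that pairs with H2-Aa, had 6.60 and 5.10 on the acupoint arrays, 5.45 and 6.11 on the non-acupoint arrays, 4.99 and 5.99 on the MPTP arrays, and 6.76 and 5.21 on the control arrays. The invariant chain gene Cd74 had 6.35 and 4.97 on the acupoint arrays, 4.98 and 6.13 on the non-acupoint arrays, 4.77 and 5.80 on the MPTP arrays, and 6.67 and 4.91 on the control arrays. Both followed H2-Aa: replicate 1 was the higher array of the acupoint and control groups, and replicate 2 was the higher array of the non-acupoint and MPTP groups. H2-Eb1, the beta chain of the I-E molecule, had 6.67 and 5.44 on the acupoint arrays, 5.73 and 6.32 on the non-acupoint arrays, 5.81 and 6.10 on the MPTP arrays, and 6.97 and 5.95 on the control arrays. It had the same order within every group, although C57BL/6 mice lack the I-E alpha chain and so carry no I-E at the cell surface.

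**Figure D1:**
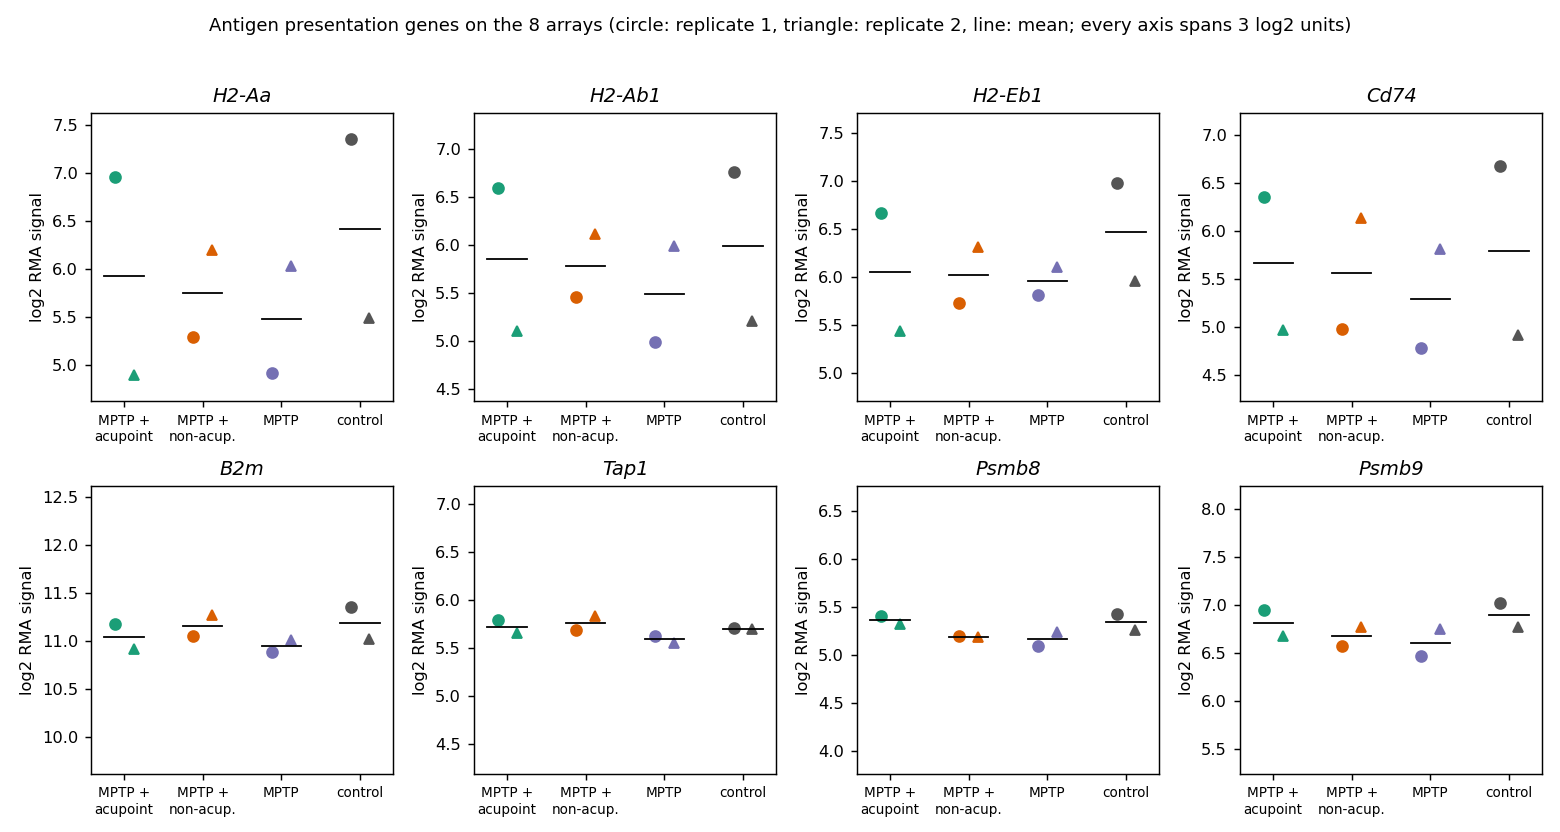
Log2 RMA signal of the 8 antigen presentation genes tested, on the 2 arrays of each group (circle, replicate 1; triangle, replicate 2; line, group mean), with every vertical axis spanning the same number of log2 units. The class II genes in the upper row are far apart within groups, with H2-Aa at 6.96 and 4.89 on the acupoint arrays, and the class I and loading genes in the lower row lie close together.

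The promoters of H2-Aa and H2-Eb1 are shown because these genes moved together over the arrays. Class II promoters carry a Y box, which is bound by the factor NF-Y. A core of this box, CTGATTGG, was searched on both strands in windows of 250 bases before to 50 after the gene start (RefSeq, GRCm38.p6) and is set in capitals. The H2-Aa window is chr17:34287774-34288073 on the minus strand and the H2-Eb1 window chr17:34305617-34305916 on the plus strand, both in the major histocompatibility complex on chromosome 17.
H2-Aa: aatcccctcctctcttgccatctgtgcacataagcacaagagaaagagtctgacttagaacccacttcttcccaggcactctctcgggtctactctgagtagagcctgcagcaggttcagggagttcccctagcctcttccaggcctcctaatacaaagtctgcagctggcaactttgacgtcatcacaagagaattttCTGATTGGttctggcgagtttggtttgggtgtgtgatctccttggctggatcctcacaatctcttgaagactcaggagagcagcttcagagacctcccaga
H2-Eb1: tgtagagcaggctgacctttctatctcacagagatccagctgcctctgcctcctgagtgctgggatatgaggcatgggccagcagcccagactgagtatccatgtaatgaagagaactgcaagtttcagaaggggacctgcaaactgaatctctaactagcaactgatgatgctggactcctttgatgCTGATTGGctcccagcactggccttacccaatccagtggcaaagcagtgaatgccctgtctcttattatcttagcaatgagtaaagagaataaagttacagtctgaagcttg
The core began 51 bases before the start of H2-Aa and 62 bases before that of H2-Eb1. It occurred in 4.1% of 32851 promoter windows of the same length, and a match is a description of these letters only. H2-Ab1 had no window in the set used and Cd74 was left out of the search of the listed genes, so both are named without a sequence.

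Few genes on the arrays had gaps between replicates as large as those of the class II genes. On the acupoint arrays, replicate 1 exceeded replicate 2 by 2.07 for H2-Aa, 1.49 for H2-Ab1, 1.39 for Cd74 and 1.23 for H2-Eb1 on the log2 scale, while the median absolute gap over all genes was 0.18 and 0.718% of the genes tested had a gap above 1. On the non-acupoint arrays the same differences were -0.91, -0.65, -1.16 and -0.59, with a median absolute gap of 0.099 and 0.237% of genes above 1. The sign was opposite to that on the acupoint arrays for all 4 genes. On the MPTP arrays they were -1.12, -1.001, -1.03 and -0.29, with a median absolute gap of 0.077 and 0.181% of genes above 1. On the control arrays they were 1.87, 1.55, 1.77 and 1.02, with a median absolute gap of 0.13 and 0.849% above 1. In all, 12 of the 16 class II gaps exceeded 1. Only 15 of 16026 genes had a gap between the acupoint arrays as large as that of H2-Aa, and 20 had one as large between the control arrays.

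After the group means were removed, the residual standard deviation was 1.11 for H2-Aa, 0.96 for Cd74, 0.87 for H2-Ab1 and 0.61 for H2-Eb1, against a median of 0.12 over all genes. Between 0.125% and 0.618% of the genes tested had a residual standard deviation as large as these 4. Across the 8 arrays the 6 pairs of class II genes correlated at Pearson's r of 0.92 to 0.98, and at 0.79 to 0.96 without control replicate 1 and acupoint replicate 1, the arrays farthest from the median. These values describe 8 arrays that share 4 groups and 1 normalization.

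**Figure D2:**
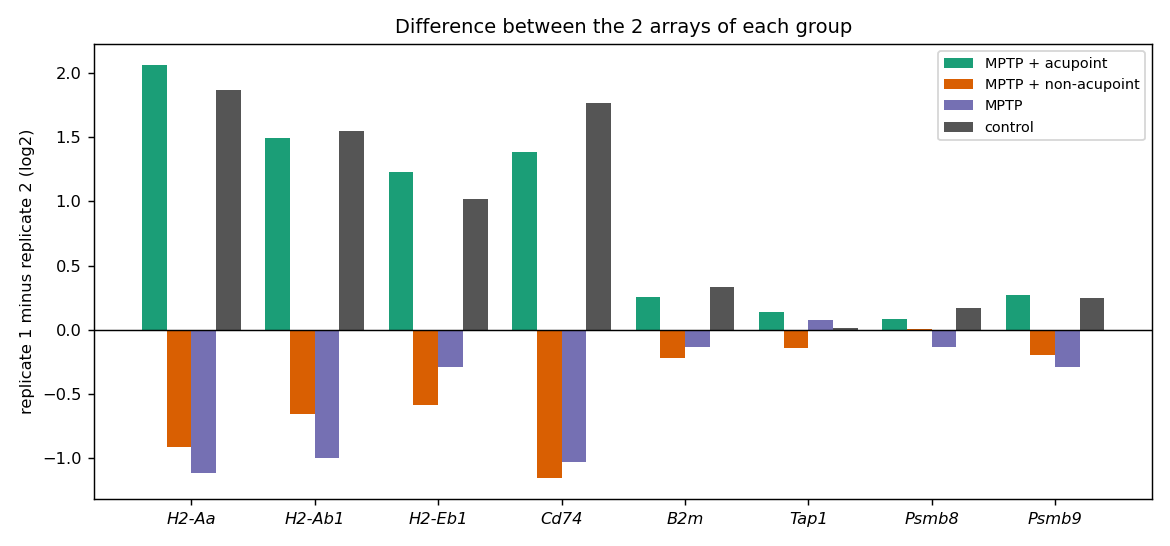
Replicate 1 minus replicate 2 on the log2 scale for each gene, with 1 bar for each group. The bars of the class II genes point up in the acupoint and control groups and down in the non-acupoint and MPTP groups, up to 2.07 for H2-Aa in the acupoint group, and no bar of the class I and loading genes passes 0.34.

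The class I and loading genes were tighter. B2m, the shared light chain of class I, had 11.17 and 10.91 on the acupoint arrays, 11.05 and 11.27 on the non-acupoint arrays, 10.88 and 11.01 on the MPTP arrays, and 11.35 and 11.02 on the control arrays. Its lowest array was MPTP replicate 1 and its highest control replicate 1, a range of 0.47. Psmb9, a catalytic subunit of the immunoproteasome, had 6.95 and 6.68 on the acupoint arrays, 6.58 and 6.77 on the non-acupoint arrays, 6.47 and 6.75 on the MPTP arrays, and 7.02 and 6.77 on the control arrays. Both had the within-group order of the class II genes on a smaller scale, and their residual standard deviations, 0.18 each, were matched or exceeded by 23.7% and 22.7% of genes.

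Psmb8, the other immunoproteasome subunit measured, had 5.40 and 5.32 on the acupoint arrays, 5.19 and 5.18 on the non-acupoint arrays, 5.09 and 5.23 on the MPTP arrays, and 5.42 and 5.25 on the control arrays. Tap1, a subunit of the peptide pump, had 5.79 and 5.65 on the acupoint arrays, 5.69 and 5.83 on the non-acupoint arrays, 5.63 and 5.55 on the MPTP arrays, and 5.71 and 5.69 on the control arrays. Neither kept the class II order in every group, and both spanned a small range, 0.33 for Psmb8 and 0.28 for Tap1 over the 8 arrays. Their mean signals were low, at 5.26 and 5.69. Of the 16 gaps between replicates of these 4 genes, 0 exceeded 1, and the largest was 0.34.

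The probe sets shared by H2-K1 and H2-D1, the classical class I heavy chains of this strain, carry both symbols and that of another locus, and were examined in a fit over all 35557 probe sets added after seeing the data. The shared probe set 10444780 had 8.42 and 8.64 on the acupoint arrays, 8.66 and 9.07 on the non-acupoint arrays, 8.77 and 8.80 on the MPTP arrays, and 8.60 and 8.21 on the control arrays. The shared probe set 10450075 had 8.14 and 8.23 on the acupoint arrays, 8.19 and 8.66 on the non-acupoint arrays, 8.21 and 8.26 on the MPTP arrays, and 8.18 and 7.65 on the control arrays. On both, control replicate 2 was lowest and non-acupoint replicate 2 highest, and acupoint replicate 1 did not exceed acupoint replicate 2, unlike the class II genes. MPTP minus control was 0.38 (SE 0.17) and 0.32 (SE 0.20), and neither passed (limma adjusted p = 0.212 and 0.374).

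The promoter windows of B2m and Psmb9 are shown for comparison with the class II genes. The B2m window, chr2:122147437-122147736 on the plus strand of chromosome 2, was searched on both strands for a core of the interferon-stimulated response element, GAAA followed by any 2 bases and GAAA, and all windows were searched for both cores. The Psmb9 window, chr17:34187281-34187580 on the minus strand of chromosome 17, shares 275 bases with that of Tap1, which is transcribed the other way.
B2m: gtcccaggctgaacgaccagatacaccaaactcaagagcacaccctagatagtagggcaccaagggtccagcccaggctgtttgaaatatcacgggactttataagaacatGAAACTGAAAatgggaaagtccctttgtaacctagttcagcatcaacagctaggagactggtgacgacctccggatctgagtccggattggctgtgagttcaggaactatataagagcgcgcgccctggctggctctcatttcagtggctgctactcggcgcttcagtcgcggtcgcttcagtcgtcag
Psmb9: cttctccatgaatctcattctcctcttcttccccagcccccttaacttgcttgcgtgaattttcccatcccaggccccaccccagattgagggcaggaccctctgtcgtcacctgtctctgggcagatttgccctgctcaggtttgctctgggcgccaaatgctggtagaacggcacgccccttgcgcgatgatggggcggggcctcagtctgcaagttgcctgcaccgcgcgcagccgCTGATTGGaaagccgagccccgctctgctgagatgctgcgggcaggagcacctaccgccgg
The capitals mark GAAACTGAAA in the B2m window, 139 bases before the start, and CTGATTGG in the Psmb9 window, 11 bases before the start. The interferon core occurred in 3.44% of all windows and the Y box core in 4.1%. Of the 8 listed genes with a window searched, 6 had the Y box core and 1, B2m, had the interferon core. The matches of Psmb9 and Tap1 are the same site read on opposite strands, so that the 6 genes rest on 5 sites. Psmb9 and Tap1 did not have the same order of arrays: Psmb9 was lower on MPTP replicate 1 than on MPTP replicate 2 (6.47 and 6.75), and Tap1 was not (5.63 and 5.55).

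Whether the toxin moved these genes was asked by setting the MPTP group against the control group. A gene is called where limma's p, adjusted by Benjamini-Hochberg over all genes tested, is under 0.05. No antigen presentation gene passed: 0 of 8 were called by limma and 0 had an unadjusted p under 0.05, while 16.8% of all genes tested were called and 31.6% had an unadjusted p under 0.05. H2-Aa averaged 5.48 ± 0.79 after MPTP and 6.42 ± 1.32 in controls (SD, n = 2 each), a log2 difference of -0.94 (SE 0.73, 95% interval -2.60 to 0.71, limma adjusted p = 0.43). H2-Eb1 averaged 5.96 ± 0.20 after MPTP and 6.46 ± 0.72 in controls, a difference of -0.51 (95% interval -1.44 to 0.42). H2-Ab1 and Cd74 both had differences of -0.50, with intervals of -1.80 to 0.81 and -1.95 to 0.94. The arrays of the groups overlapped for all 4 class II genes, and the intervals leave room for differences of more than 2-fold downwards.

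B2m averaged 10.94 ± 0.09 after MPTP and 11.18 ± 0.24 in controls, a difference of -0.24 (SE 0.13, 95% interval -0.53 to 0.05, limma adjusted p = 0.244). Psmb9 averaged 6.61 ± 0.20 after MPTP and 6.90 ± 0.18 in controls, a difference of -0.29 (SE 0.15, 95% interval -0.63 to 0.06, limma adjusted p = 0.236), the smallest adjusted p among the 8. Psmb8 and Tap1 had differences of -0.18 (95% interval -0.48 to 0.12) and -0.11 (-0.39 to 0.17). For these 4 genes both MPTP arrays lay below both control arrays, as they did for 22.1% of all genes, and for B2m the nearest arrays of the groups were at 11.01 and 11.02. With the deposited scaling all 8 differences were negative, with a median of -0.39 against 0.061 over all genes tested, and this direction turned without a single array for 3 of the class II genes. Without control replicate 1 the differences of H2-Ab1, Cd74 and H2-Eb1 were 0.28, 0.38 and 0.0033, and without MPTP replicate 1 those of H2-Ab1 and Cd74 were 0.0044 and 0.013. H2-Aa stayed negative but was at -0.010 without control replicate 1, -0.39 without MPTP replicate 1 and -1.88 without control replicate 2. B2m was at -0.072 and Psmb9 at -0.16 without control replicate 1, and they were at -0.41 each without control replicate 2. The difference of Tap1 turned to 0.051 and that of Psmb8 to 0.026 when the arrays were quantile normalized again, and that of Tap1 to 0.046 when they were centred on their medians.

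**Figure D3:**
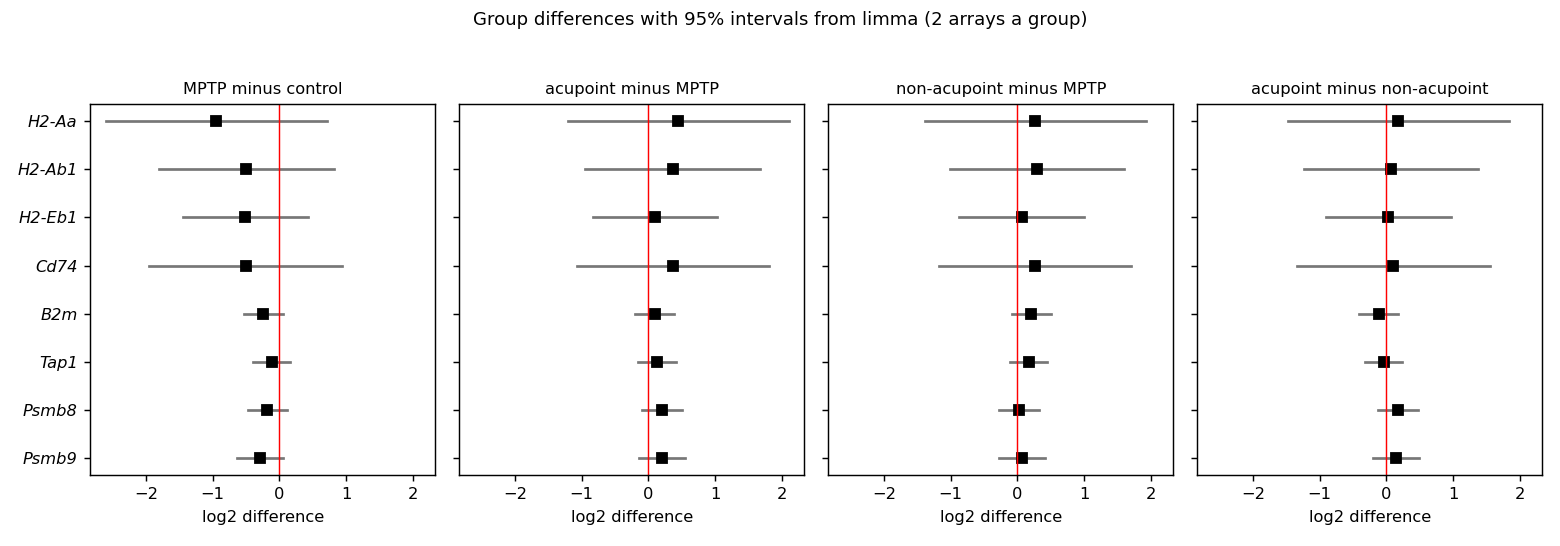
Log2 differences between groups (squares) with 95% intervals from limma (bars) for the 8 genes in 4 comparisons. Every interval crosses 0, and the intervals of the class II genes are wide, from -2.60 to 0.71 for H2-Aa in MPTP minus control.

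The comparisons of each needled group with MPTP alone asked whether needling moved the genes in treated mice. In acupoint minus MPTP, 0 of 8 genes were called by limma, 0 had an unadjusted p under 0.05, and over all genes these shares were 0% and 1.25%. H2-Aa averaged 5.93 ± 1.46 after acupoint needling and 5.48 ± 0.79 after MPTP alone (SD, n = 2 each), a difference of 0.45 (SE 0.73, 95% interval -1.20 to 2.10). Cd74, H2-Ab1 and H2-Eb1 were at 0.37 (-1.07 to 1.81), 0.36 (-0.94 to 1.67) and 0.096 (-0.83 to 1.03). Each of these 4 rests on acupoint replicate 1: without it H2-Aa was at -0.58, H2-Ab1 at -0.38, H2-Eb1 at -0.52 and Cd74 at -0.32, and without acupoint replicate 2 H2-Aa was at 1.48. Without MPTP replicate 1 they were, in the same order, at -0.11, -0.14, -0.047 and -0.14.

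Psmb9, Psmb8, Tap1 and B2m were at 0.21 (95% interval -0.14 to 0.55), 0.20 (-0.10 to 0.50), 0.13 (-0.15 to 0.41) and 0.096 (-0.19 to 0.39) in acupoint minus MPTP. Psmb8 and Tap1 were higher on both acupoint arrays than on both MPTP arrays, as were 12.3% of all genes. B2m was at -0.033 without acupoint replicate 1. The median of the 8 genes was 0.20, against -0.0098 over all genes.

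In non-acupoint minus MPTP, 0 of 8 genes were called by limma, 0 had an unadjusted p under 0.05, and over all genes these shares were 0% and 1.70%. H2-Ab1 was at 0.29 (95% interval -1.01 to 1.60), H2-Aa at 0.27 (-1.38 to 1.92), Cd74 at 0.27 (-1.18 to 1.71) and H2-Eb1 at 0.064 (-0.87 to 0.99). These 4 became negative without non-acupoint replicate 2, at -0.032 for H2-Ab1, -0.19 for H2-Aa, -0.31 for Cd74 and -0.23 for H2-Eb1, and also without MPTP replicate 1, at -0.21, -0.29, -0.25 and -0.079. B2m was at 0.21 (-0.08 to 0.50), Tap1 at 0.17 (-0.11 to 0.45), Psmb9 at 0.065 (-0.28 to 0.41) and Psmb8 at 0.026 (-0.27 to 0.32). B2m and Tap1 were higher on both non-acupoint arrays than on both MPTP arrays, as were 17.1% of all genes. Psmb9 was at -0.078 and Psmb8 at -0.043 without MPTP replicate 1. This comparison and that of the acupoint group share the MPTP arrays.

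The comparison of the needled groups with each other asked whether the site of needling mattered. In acupoint minus non-acupoint, 0 of 8 genes were called by limma, 0 had an unadjusted p under 0.05, and over all genes these shares were 0% and 3.77%. Without acupoint replicate 2 there were 622 genes called over the whole array (82 higher and 540 lower), and still 0 of the 8. H2-Aa averaged 5.93 ± 1.46 in the acupoint group and 5.74 ± 0.65 in the non-acupoint group (SD, n = 2 each), a difference of 0.18 (95% interval -1.47 to 1.83). Cd74, H2-Ab1 and H2-Eb1 were at 0.10 (-1.34 to 1.55), 0.068 (-1.24 to 1.38) and 0.032 (-0.90 to 0.96). The intervals of H2-Aa, Cd74 and H2-Ab1 run past a 2-fold difference in both directions. Without acupoint replicate 1, H2-Aa was at -0.85, H2-Ab1 at -0.68, Cd74 at -0.59 and H2-Eb1 at -0.58, and without non-acupoint replicate 1 they were at -0.27, -0.26, -0.47 and -0.26. Psmb8 was at 0.18 (-0.12 to 0.47), Psmb9 at 0.14 (-0.20 to 0.48), Tap1 at -0.039 (-0.32 to 0.24) and B2m at -0.11 (-0.41 to 0.18), and of the 8 only Psmb8 was higher on both acupoint arrays than on both non-acupoint arrays, as were 15.2% of all genes.

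Against control, the mean of the 3 MPTP groups (acupoint, non-acupoint and MPTP alone) gave 0 of 8 genes called by limma and 0 with an unadjusted p under 0.05, while over all genes these shares were 25.2% and 37.2%. With the deposited scaling all 8 differences were negative, with a median of -0.24 against 0.055 over all genes. Without control replicate 1 the median was 0.044 and 3 of the 8 were negative, after centring of the arrays it was -0.085 with 5 negative, after quantile normalization again -0.17 with 6 negative, and without acupoint replicate 2 -0.091 with 7 negative. The 6 treated arrays overlapped the control arrays for each of the 8, whereas the arrays of 36.9% of all genes did not overlap. In the order of group means, H2-Aa, H2-Ab1, H2-Eb1 and Cd74 were highest in controls, then in the acupoint group, then in the non-acupoint group and lowest in the MPTP group. No neighbours in that order differed beyond the spread between their arrays. B2m, Tap1, Psmb8 and Psmb9 were also lowest in the MPTP group, but Tap1 was highest in the non-acupoint group and Psmb8 in the acupoint group.

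The mean levels of markers of cells at the borders of the cord had the within-group array order of the class II genes. In bulk tissue, more cells of a type and more RNA per cell cannot be told apart. Of 7 border macrophage markers 6 were tested, and their mean was 5.61 and 4.82 on the acupoint arrays, 5.07 and 5.26 on the non-acupoint arrays, 4.94 and 5.29 on the MPTP arrays, and 5.49 and 4.82 on the control arrays, replicate 1 first. The higher array of each group was that with the higher class II signal, and 4 of the 6 markers kept this order in all 4 groups, as did all 4 class II genes and 7.61% of all genes tested. The 6 markers had mean signals of 4.74 to 5.88, low on these arrays. The mean of the 8 fibroblast and meningeal markers was 8.61 and 7.04 on the acupoint arrays, 7.38 and 7.69 on the non-acupoint arrays, 7.18 and 8.00 on the MPTP arrays, and 8.40 and 7.20 on the control arrays, and 6 of the 8 kept the class II order in all 4 groups. This order was noticed in the data, and the part of these cells in the class II signal was not tested.

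The means of the other marker lists did not have this order in all 4 groups. Among the pathway lists described below, the means of the class I chain, class II chain and loading, immunoproteasome, regulator and co-stimulation lists had it. Of their genes, 2 of 5, 5 of 12, 2 of 5, 2 of 11 and 1 of 4 kept it in all 4 groups, and some of these are listed genes. A list mean in this order is therefore not particular to the border markers. The mean of the 16 microglial markers tested, of 17, was 6.95 and 7.06 on the acupoint arrays, 7.15 and 7.08 on the non-acupoint arrays, 7.01 and 6.98 on the MPTP arrays, and 6.73 and 6.65 on the control arrays, so that replicates differed by at most 0.11 and 1 of the 16 kept the class II order in all 4 groups. By limma 7 of the 16 were higher in MPTP minus control and 0 lower, in a comparison where 13.7% of all genes were called higher. The mean of the 10 endothelial markers tested was 7.91 and 7.58 on the acupoint arrays, 7.70 and 7.63 on the non-acupoint arrays, 7.72 and 7.76 on the MPTP arrays, and 7.58 and 7.43 on the control arrays, and 2 of the 10 kept the order. Markers of skeletal muscle, a tissue that lies beside the cord, had means of 6.77 and 5.31 on the acupoint arrays, 5.23 and 5.65 on the non-acupoint arrays, 5.55 and 5.48 on the MPTP arrays, and 7.28 and 8.82 on the control arrays. They were highest on control replicate 2, where H2-Aa, H2-Ab1 and Cd74 were 2.93-fold to 3.65-fold below control replicate 1, and 0 of the 14 kept the class II order. The muscle mean was higher on both control arrays than on all 6 treated arrays. By limma 11 of the 14 muscle markers were called lower in MPTP minus control and 12 with the 3 MPTP groups together, with 0 higher. The shares of all genes called lower were 3.10% and 5.35%. The control arrays thus differed from the others in muscle signal, and the part of muscle in the comparisons with control was not tested.

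Markers of professional antigen-presenting cells and lymphocytes were poorly measured. Of 8 dendritic cell markers 4 were tested, with means of 6.31 and 6.03 on the acupoint arrays, 6.06 and 6.24 on the non-acupoint arrays, 6.14 and 6.21 on the MPTP arrays, and 6.12 and 6.20 on the control arrays, and Itgax, Xcr1, Clec9a and Cd209a had no probe set of their own above the filter. Of 6 B cell markers 3 were tested, with means of 4.92 to 5.45 over the 8 arrays, highest on non-acupoint replicate 2. Of 9 T and natural killer cell markers 2 were tested, with means of 4.92 to 5.57. Of these lists 1 of the 4 dendritic markers and 0 of the others kept the class II order in all 4 groups.

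**Figure D4:**
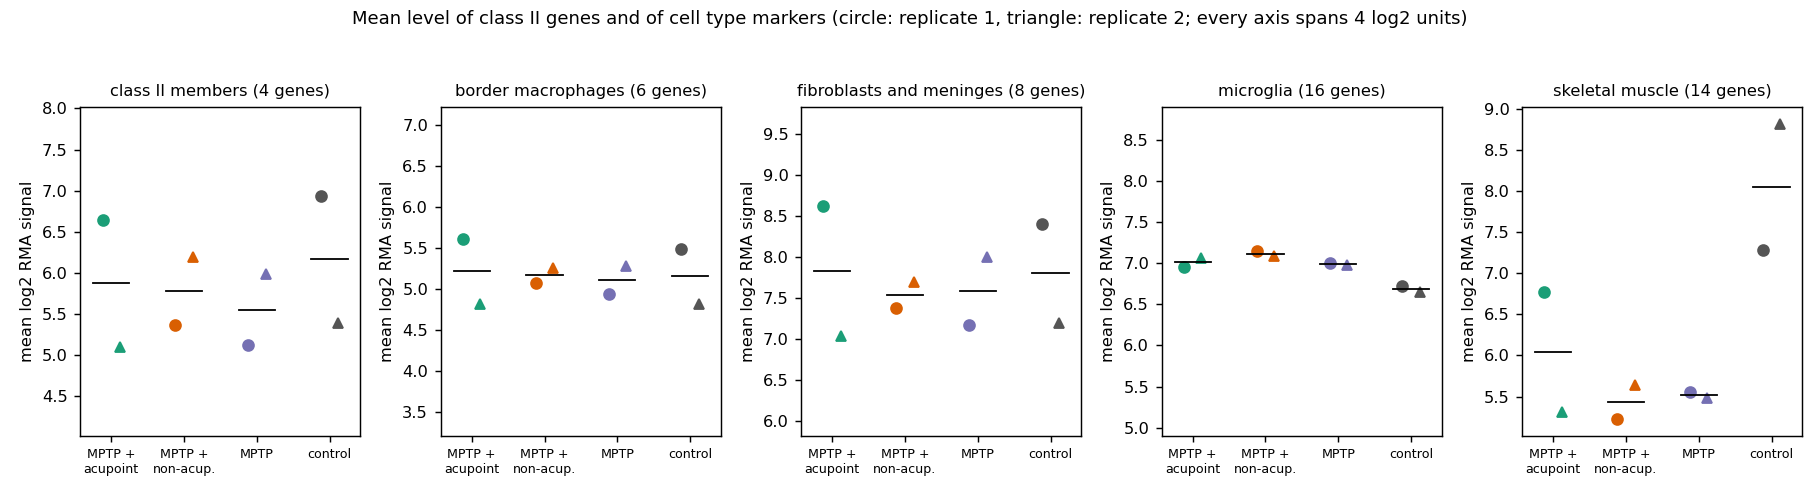
Mean log2 RMA signal of the 4 class II genes and of 4 marker lists on the 2 arrays of each group (circle, replicate 1; triangle, replicate 2; line, group mean), with every vertical axis spanning the same number of log2 units. The means of the border macrophage list and of the fibroblast and meningeal list have the within-group order of the class II genes, though not every marker does. Microglial replicates lie within 0.11 of each other, and muscle markers are highest on control replicate 2 at 8.82.

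The regulators of these genes were examined next, named after their values were seen. Nlrc5, a transactivator of class I genes, had 8.13 and 7.62 on the acupoint arrays, 7.73 and 8.00 on the non-acupoint arrays, 7.64 and 7.83 on the MPTP arrays, and 8.23 and 7.85 on the control arrays, the same order within groups as the class II genes. Ciita, the transactivator of class II genes, had 5.09 and 4.82 on the acupoint arrays, 4.88 and 5.12 on the non-acupoint arrays, 4.85 and 4.82 on the MPTP arrays, and 5.03 and 5.08 on the control arrays, and did not have that order in the MPTP and control groups. The regulator list had 2 of 11 genes that kept the class II order in every group, against 7.61% of all genes. Over this list, Pearson's r with the class II mean ran from -0.76 for Rfxap to 0.97 for Nlrc5. Ciita was at 0.59 and Rfx5 at -0.51. Rfxap had the reverse of the class II order in every group. The order of Nlrc5 was thus not that of most genes on the list. MPTP minus control was -0.31 (SE 0.18, limma adjusted p = 0.296) for Nlrc5 and -0.22 (SE 0.15, limma adjusted p = 0.363) for Ciita. Of the 11 regulator and interferon gamma signalling genes tested, Ifngr1, a chain of the interferon gamma receptor, was called higher after MPTP and 0 were lower, where 13.7% of all genes were called higher. The count does not stand above that share.

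Among the other genes of the pathway lists, 8 of 55 tested (14.5%) were called higher in MPTP minus control by limma and 0 lower, a share near the 13.7% of all genes called higher. Of the 8, 4 are class I loading genes. The loading list had 9 genes tested, with Tap1 and the transactivator Nlrc5, which is also on the regulator list. On it 4 were higher, 0 lower and 5 not called (4 of 8 higher without Nlrc5), and the median of the list was 0.36 against 0.061 over all genes, of which 13.7% were called higher and 3.10% lower. Canx, a chaperone that folds the heavy chain, had 11.82 and 11.79 on the MPTP arrays, against 11.32 and 11.13 on the control arrays, a difference of 0.58 (SE 0.07, adjusted p = 0.00328). Tapbp, or tapasin, which holds class I to the peptide pump, had 8.33 and 8.45 on the MPTP arrays, against 8.01 and 7.66 on the control arrays, a difference of 0.55 (SE 0.12, adjusted p = 0.0174). For both genes the MPTP arrays lay above the control arrays. The share of all genes separated in that direction is not given, so nothing is drawn from this separation. Erap1, which trims peptides, rose by 0.45 (SE 0.10, adjusted p = 0.0162), and Pdia3, a disulfide isomerase of the loading complex, rose by 0.42 (SE 0.08, adjusted p = 0.00814). Canx and Pdia3 also serve other glycoproteins. Markers of cord neurons and glia were higher as well, with 7 of 14 called and 0 lower, and their mean was 10.06 and 10.02 on the MPTP arrays, against 9.68 and 9.78 on the control arrays. Their part in the calls of the loading genes was not tested.

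On the class II side, 12 listed genes were tested, and 2 that are not class II chains rose after MPTP, with 0 lower and a list median of -0.15. That is near the share of all genes called higher in this comparison. Ctss, cathepsin S, which degrades the invariant chain, had 10.09 on both MPTP arrays, against 9.33 and 9.38 on the control arrays, a difference of 0.74 (SE 0.08, adjusted p = 0.00218). Lgmn, an endosomal endopeptidase, had 11.34 and 11.31 on the MPTP arrays, against 10.79 and 10.73 on the control arrays, a difference of 0.56 (SE 0.08, adjusted p = 0.00379). Both proteases also act outside antigen presentation, and microglia express them. The microglial mean was 7.01 and 6.98 on the MPTP arrays, against 6.73 and 6.65 on the control arrays, and its part in these calls was not tested. Ifngr1 rose by 0.56 (SE 0.11, adjusted p = 0.0121) and the interferon-induced gene Ifit2 by 0.70 (SE 0.16, adjusted p = 0.0187). Of 16 interferon-stimulated genes tested, Ifit2 was the only one called in MPTP minus control, against 13.7% of all genes called higher, and the list median was 0.10.

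With all 3 MPTP groups together, the 8 genes above and 3 more of the pathway lists were past the limma threshold, all higher. These are 11 of the 55 other pathway genes tested (20.0%), a share near that over all genes, of which 19.9% were called higher and 5.35% lower. Ctss rose by 0.83 (SE 0.07, adjusted p = 0.000263), Canx by 0.56 (adjusted p = 0.000745), Pdia3 by 0.51, Lgmn by 0.53, Ifngr1 by 0.63, Tapbp by 0.55, Erap1 by 0.50 and Ifit2 by 0.67. H2-Q4, a class I gene of the Q region that shares sequence with its neighbours and is therefore uncertain, rose by 0.48 (adjusted p = 0.0198). The interferon-induced genes Ifi27 and Usp18 rose by 0.34 (adjusted p = 0.0163) and 0.38 (adjusted p = 0.0412). In MPTP minus control H2-Q4 was at 0.49, Ifi27 at 0.28 and Usp18 at 0.25, and these 3 did not pass.

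Most of these calls were lost when a single array was left out, in fits that also called fewer genes over the whole array. In MPTP minus control, Tapbp, Pdia3, Erap1, Ifngr1 and Ifit2 lost their call without control replicate 2, without MPTP replicate 1 and without MPTP replicate 2, Lgmn without either MPTP array, and Canx without MPTP replicate 1 (adjusted p = 0.0506 to 0.161). Their log2 differences stayed between 0.37 and 0.74 in those fits, and Ctss kept its call. With the 3 MPTP groups together, Tapbp and Ifit2 lost their call without control replicate 2 (0.37 and 0.48), and H2-Q4 without control replicate 2 (0.38) or MPTP replicate 2 (0.46). The call of Ifi27 was lost without control replicate 1 or 2 or MPTP replicate 2, and that of Usp18 without any single array of the control, MPTP or non-acupoint groups. Ifi27 also missed the threshold after quantile normalization again and after cyclic loess (adjusted p = 0.0537 and 0.100), and Usp18 with no filter on low signal (adjusted p = 0.0512).

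**Figure D5:**
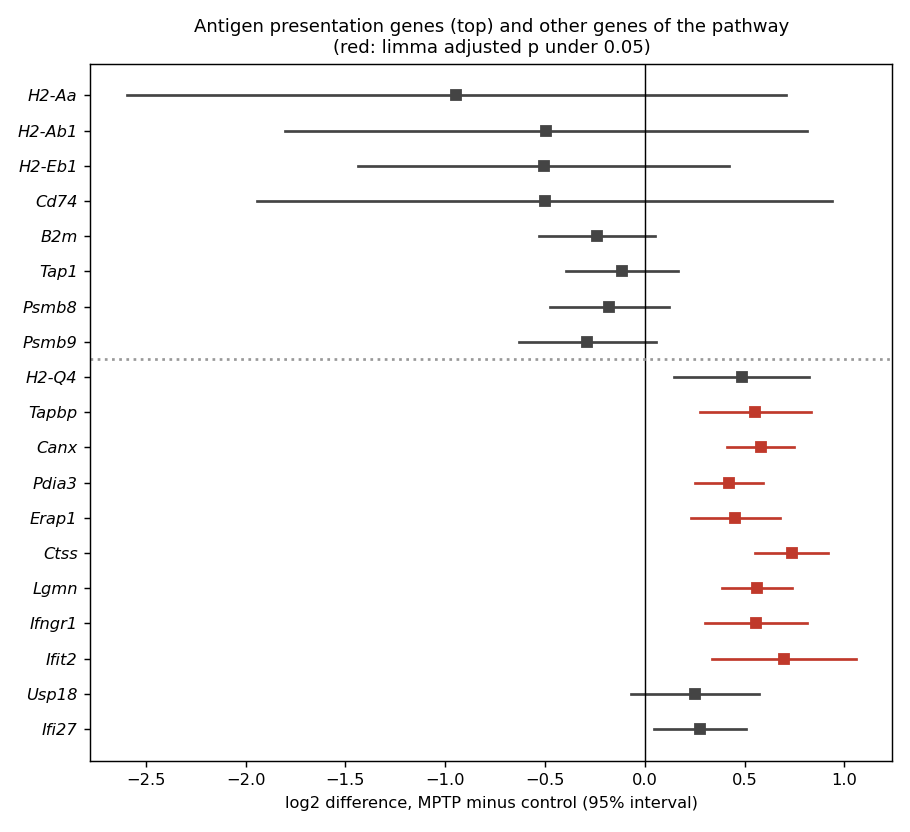
Log2 differences in MPTP minus control with 95% intervals for the 8 antigen presentation genes tested (above the dotted line) and for 11 other genes of the pathway lists (below it), with genes past the limma threshold in red. All 8 antigen presentation genes lie below 0 without passing, from -0.94 for H2-Aa to -0.11 for Tap1 (Tap1 and Psmb8 lie above 0 after quantile normalization again, and Tap1 after centring), and Tapbp, Canx, Pdia3, Erap1, Ctss, Lgmn, Ifngr1 and Ifit2 lie above 0.

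The remaining lists gave no call in MPTP minus control by limma. Among immunoproteasome and activator genes, Psme1, Psme2 and Psmb10 were at 0.29, 0.16 and 0.031, and their adjusted p was 0.119 to 0.886. Psme1 passed with arrays centred on their medians, at 0.45 (adjusted p = 0.0263), and without control replicate 1, at 0.49 (adjusted p = 0.0158). The catalytic subunits of the constitutive proteasome, Psmb6, Psmb7 and Psmb5, were at 0.085, 0.072 and 0.011. The co-stimulation genes Cd40, Cd86 and Cd80, which serve T cell activation, were at -0.099, 0.045 and -0.048. The signs of Psmb10, Psmb5, Psmb6, Psmb7, Cd40 and Cd80 changed under another scaling of the arrays.

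The genes whose pattern was most like that of the class II mean over the 8 arrays, outside the 10 listed genes, were Ston1, Nlrp6 and Prr15. Their Pearson's r was 0.98, 0.98 and 0.97 and their Spearman's rho 0.90, 0.98 and 0.95, and 28 genes had an r of at least 0.95. Ston1, an endocytic adaptor gene, spanned 1.08 on the log2 scale, and Nlrp6, an innate immune sensor gene, and Prr15 spanned 0.48 and 0.69. For the mean of B2m, Tap1, Psmb8 and Psmb9 they were Klk12, Gjb2 and Mrgprf, with r of 0.98, 0.96 and 0.96 and rho of 0.93, 0.83 and 0.86, and 7 genes had an r of at least 0.95. Gjb2, which encodes a connexin, had 7.46 and 7.07 on the acupoint arrays, 7.10 and 7.21 on the non-acupoint arrays, 6.71 and 7.06 on the MPTP arrays, and 7.44 and 7.09 on the control arrays. These genes were picked by this measure from 16026, and the values are a description.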

How the data were processed

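Gene expression in 8 samples was measured on whole-transcript arrays, 1 for each sample. Per the submitters' processing notes, RMA and Affymetrix Expression Console were used, with no version named. The authors deposited log2 values for 35557 probe sets on each array, and that scale was inferred from the range of the values. RMA makes probe signals equal in distribution across arrays, so a change shared by most genes is not seen, and it compresses the changes of dim probe sets. The deposited probe set values still differed in spread between the control arrays and the others.

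The platform annotation gave 1 symbol to 21789 probe sets, several to 1621 and none to 12147. Those with 1 symbol stayed in when their mean signal exceeded the 30th percentile over the whole array, and a gene with several was represented by the brightest, which left 16026 genes. limma 3.58.1 (R 4.3.3) fitted a mean for each group to the 8 arrays, with trended eBayes and 4 residual and 5.34 prior degrees of freedom. P-values are two-sided and adjusted by Benjamini-Hochberg over all genes within each of 5 contrasts, with a threshold of 0.05. Of 2 arrays against 2, an exact permutation test of a single value cannot give a p below 0.333, and none was made. The code was tested on simulated data. No batch was tested, since scan dates were not used.

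The genes and lists were chosen with earlier results of these data known. All 10 listed genes are named, and of each pathway list every gene past the threshold in any contrast or, with none, the 3 of smallest p in MPTP minus control. Alternatives were quantile normalization again, cyclic loess, arrays centred on their medians, other filters on low signal, eBayes untrended or robust, averaged probe sets, a fit of the compared groups alone, replicate number as a block, and omission of single arrays. Promoter windows come from RefSeq tables of GRCm38.p6, with no genome used. Plots were drawn with matplotlib 3.10.9.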

Additional observations from a re-analysis of the deposited data

How the results depend on the processing

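No antigen presentation gene was called under any of the alternatives run: all 89 recomputed counts were 0, and the smallest adjusted p was 0.0955. Cd74 and Psmb8 were not in the fit with the filter at the 50th percentile, and a fit of only the groups compared is the same fit for the 3 MPTP groups together. Of 568 recomputed log2 differences of these genes in the 4 pairwise comparisons 39 changed sign, 36 of them with 1 array left out, where the lone array of a group is assumed to vary like the other groups. With the 3 MPTP groups together against control, 13 of 134 were not negative. The median of all genes in MPTP minus control was 0.22 with arrays centred on their medians (4028 called higher and 218 lower), 0.037 after cyclic loess (1338 and 752) and 0.10 after quantile normalization again (2047 and 632), against 0.061 in the main analysis (2199 and 497), and the median of the 8 genes was -0.23, -0.42 and -0.34 against -0.39. All genes called in that comparison numbered 69 and 194 without MPTP replicates 1 and 2 and 681 without control replicate 2, 4225 and 4202 without acupoint replicates 1 and 2, 3698 with only the groups compared, and 1824 without a trend, against 2696. With the 3 MPTP groups together they numbered 1404 without control replicate 2 and 2591 without MPTP replicate 1, against 4041. Against 0 called, single arrays left out gave up to 3 in acupoint minus MPTP, up to 13 in non-acupoint minus MPTP and up to 622 in acupoint minus non-acupoint, and only the groups compared gave 2 in non-acupoint minus MPTP.

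In MPTP minus control, Tap1 was at 0.051 after quantile normalization again and 0.046 after centring, and Psmb8 at 0.026 after quantile normalization again. There Psmb10 was at -0.030, Psmb7 at -0.0091, Psmb5 at -0.091, Cd40 at 0.066 and Cd80 at 0.18, after cyclic loess Psmb10 was at -0.061, Psmb6 at -0.070, Psmb7 at -0.085, Psmb5 at -0.13 and Cd80 at 0.071, and after centring Cd40 was at 0.059 and Cd80 at 0.11. The cause was not tested.

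With each array left out in turn, MPTP minus control ran from -1.88 to -0.010 for H2-Aa, -0.41 to -0.072 for B2m, -0.43 to -0.14 for Psmb9, -0.26 to -0.092 for Psmb8, -0.15 to -0.075 for Tap1, -1.27 to 0.28 for H2-Ab1, -1.02 to 0.0033 for H2-Eb1, -1.38 to 0.38 for Cd74, -0.096 to 0.16 for Psmb10, -0.12 to 0.14 for Psmb5, -0.097 to 0.19 for Cd86 and -0.27 to 0.17 for Cd80. Acupoint minus MPTP ran from -0.033 to 0.23 for B2m, -0.58 to 1.48 for H2-Aa, -0.38 to 1.11 for H2-Ab1, -0.52 to 0.71 for H2-Eb1 and -0.32 to 1.06 for Cd74. Non-acupoint minus MPTP ran from -0.29 to 0.83 for H2-Aa, -0.21 to 0.80 for H2-Ab1, -0.23 to 0.36 for H2-Eb1, -0.31 to 0.84 for Cd74, -0.043 to 0.094 for Psmb8 and -0.078 to 0.21 for Psmb9. Acupoint minus non-acupoint ran from -0.24 to 0.014 for B2m, -0.85 to 1.21 for H2-Aa, -0.68 to 0.82 for H2-Ab1, -0.58 to 0.65 for H2-Eb1, -0.59 to 0.80 for Cd74 and -0.11 to 0.030 for Tap1.

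Replicate numbers do not mark shared animals or days in the labels. Deviations from the group means correlated at -0.33 to 0.17 between same-numbered arrays, above 0 for 2 of 6 pairs. These pairs were MPTP with non-acupoint (0.16) and acupoint with control (0.17), the groups that shared their class II order. Whether the numbers stand for anything shared was not tested. With the replicate number as a block, 0 of 8 genes were called in each of the 5 contrasts, and 2210 genes were called in MPTP minus control. Under the block Usp18 lost its call with the 3 MPTP groups together (adjusted p = 0.0645) and Cd3e its call in MPTP minus control (adjusted p = 0.0706). In MPTP minus control H2-Q4 passed under 6 alternatives, among them cyclic loess (0.55, adjusted p = 0.0354), and Ifi27 passed with arrays centred (0.43, adjusted p = 0.0222).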

Other observations

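Of 9 dendritic cell and lymphocyte markers tested, 2 passed in limma with the 3 MPTP groups together (22.2%, where 25.2% of all genes were called), and they were named after their values were seen. Cd3e, a chain of the T cell receptor complex, had 5.46 and 5.26 on the acupoint arrays, 4.80 and 4.98 on the non-acupoint arrays, 5.31 and 5.02 on the MPTP arrays, and 5.70 and 5.65 on the control arrays. With the 3 MPTP groups together it fell by 0.54 (SE 0.12, limma adjusted p = 0.0132). It was lower on all 6 treated arrays than on both control arrays, where the arrays of 36.9% of all genes did not overlap. Its adjusted p was 0.0803 and 0.0817 without control replicates 1 and 2, and in MPTP minus control the call (-0.51, adjusted p = 0.0491) was lost under 11 of the alternatives. Flt3, a growth factor receptor of dendritic cell progenitors, had 7.86 and 7.97 on the acupoint arrays, 7.90 and 7.83 on the non-acupoint arrays, 8.05 and 7.99 on the MPTP arrays, and 7.58 and 7.73 on the control arrays. It rose by 0.28 with the 3 MPTP groups together (SE 0.08, adjusted p = 0.0273), and this call was lost without either control array (adjusted p = 0.187 and 0.0593), either MPTP array or non-acupoint replicate 1, after quantile normalization again (adjusted p = 0.0502) and after cyclic loess (adjusted p = 0.0979). Cd3e was higher on both acupoint arrays than on both non-acupoint arrays, as were 15.2% of all genes. The difference was 0.47 (SE 0.15, limma adjusted p = 0.936).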
